A study of Homo sapiens with 12 samples.

Results

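The liprins are encoded by 6 genes in the table, PPFIA1, PPFIA2, PPFIA3 and PPFIA4 for the α-liprins and PPFIBP1 and PPFIBP2 for the β-liprins, and all 6 were found by symbol among 60664 listed genes. The family was chosen by its measured values, because PPFIA4 was among the genes with the largest increase under hypoxia, so the hypoxia values of the members are a description and carry no test. RNA-seq was done on MDA-MB-231, an established human triple-negative breast cancer line, in 12 libraries. WT cells in normoxia, WT cells kept for 24 hr in a low-oxygen chamber (WT hypoxia), and CCAR2 KO cells in normoxia were each represented by 4 libraries. The KO cells were made with a lentiviral CRISPR guide against CCAR2, the gene of the nuclear regulator DBC1, and whether they are 1 clone or a pool is not given in the sources used here. No KO cells in hypoxia were analysed here, and both comparisons share their WT normoxia libraries. The methods speak of biological replicates but give their number differently from the 4 libraries of a group, and the labels do not say whether those came from separate cultures. P-values therefore measure only the spread among these libraries, which may be technical.

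Liprins are scaffold proteins with coiled coils at one end and SAM domains at the other. α-liprins bind receptor phosphatases of the LAR type, the active zone proteins RIM and ELKS, the adaptor CASK and the kinesin KIF1A, and they place presynaptic release sites in neurons. Outside neurons, liprin-α1 (PPFIA1) and liprin-β1 (PPFIBP1) sit at the cell edge in a cortical complex with ELKS, LL5 and KANK proteins, which holds microtubule ends near focal adhesions. β-liprins pair with α-liprins through their SAM domains. Cells in low oxygen stabilise the HIF α subunits, which bind DNA at a core of A or G followed by CGTG.

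The libraries summed to between 68599412 and 213743693 estimated counts, with the lowest sums in WT hypoxia replicates 1 and 2 and in KO replicate 2. WT hypoxia replicate 2 stood apart: its chi-square per degree of freedom against the other 3 hypoxia libraries, over all genes with counts divided by 4, was 17.3 to 27.0, beside 3.75 to 16.1 for the other pairs of replicates. Levels are given as CPM, a count relative to the sum of its library after TMM scaling over all 12 libraries. CCAR2 was at 146 ± 3.11 CPM in WT normoxia, 149 ± 4.95 CPM in WT hypoxia and 57.8 ± 2.81 CPM in KO cells (SD, n = 4). CA9, a carbonic anhydrase that serves as a hypoxia marker, was at 0.0649 CPM in WT normoxia, 4.90 CPM in WT hypoxia and 0.112 CPM in KO cells. Of the markers of the line, VIM, CD44 and AXL were abundant and ESR1, PGR and CDH1 were near 0, whereas ERBB2 was detected at 91.0, 100.5 and 92.4 CPM and EPCAM at 14.4, 12.7 and 17.5 CPM in the respective groups. Neuronal markers were low, with RBFOX3 at no more than 0.23 CPM and SYT1 highest at 8.07 CPM in KO cells.

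PPFIA4 (ENSG00000143847) lies on chr1:203026498-203078740 on the plus strand of GRCh38. PPFIA1 (ENSG00000131626) lies at chr11:70270700-70385312, PPFIA2 (ENSG00000139220) at chr12:81257975-81759553 on the minus strand and PPFIA3 (ENSG00000177380) at chr19:49119389-49151026. PPFIBP1 (ENSG00000110841) lies at chr12:27523431-27695564 and PPFIBP2 (ENSG00000166387) at chr11:7513298-7657127. The 250 bases before the RefSeq start (GRCh38.p14) are shown for 3 members with unlike hypoxia values: PPFIA4, the one that was much higher, PPFIBP2, a β-liprin that holds the same palindrome, and PPFIBP1, a β-liprin with no match. Each runs 5′ to 3′ on the plus strand, and capitals mark the letters ACGTG or GCGTG read on either strand. The windows lie at chr1:203026241-203026490 for PPFIA4, chr11:7513749-7513998 for PPFIBP2 and chr12:27523956-27524205 for PPFIBP1.
PPFIA4: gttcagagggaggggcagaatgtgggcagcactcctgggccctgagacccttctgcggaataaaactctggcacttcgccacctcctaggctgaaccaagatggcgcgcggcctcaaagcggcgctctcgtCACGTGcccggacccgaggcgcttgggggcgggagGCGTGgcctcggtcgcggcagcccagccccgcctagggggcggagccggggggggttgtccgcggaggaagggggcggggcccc
PPFIBP2: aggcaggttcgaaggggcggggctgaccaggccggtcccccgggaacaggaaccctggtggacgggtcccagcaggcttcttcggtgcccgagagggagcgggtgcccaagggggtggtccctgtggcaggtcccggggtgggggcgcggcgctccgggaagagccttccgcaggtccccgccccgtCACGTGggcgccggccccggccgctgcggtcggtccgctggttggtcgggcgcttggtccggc
PPFIBP1: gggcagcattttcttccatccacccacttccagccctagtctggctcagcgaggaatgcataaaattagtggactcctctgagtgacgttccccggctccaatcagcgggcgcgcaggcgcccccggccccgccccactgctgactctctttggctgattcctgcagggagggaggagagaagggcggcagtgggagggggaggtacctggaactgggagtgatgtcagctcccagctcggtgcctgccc

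The PPFIA4 window held 3 matches. A pair of them came from the palindrome CACGTG, which reads ACGTG on both strands and is also the E-box letters of basic helix-loop-helix factors, 119 to 114 bases before the start. The third was GCGTG, 84 to 80 bases before the start. The window of PPFIBP2 nearest the annotated 5′ end, 1 of 5 listed, held the same palindrome 63 to 58 bases before the start. PPFIA1 held 2 matches, the first of 3 PPFIA2 windows held 3, PPFIA3 held 1 GCGTG, and PPFIBP1 held none. Such letters are common: 43.2% of 35116 RefSeq windows of this length held ACGTG or GCGTG, 18.5% held ACGTG and 6.34% held CACGTG. A match describes the sequence and not a bound site. PPFIA4 and PPFIBP2 both held CACGTG, and their hypoxia values differed as given below. Which start these cells use is not known here, and any part of the palindrome in these values was not tested.

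PPFIA4 encodes liprin-α4. Its level was 6.13, 6.52, 6.63 and 8.76 CPM in the 4 WT normoxia libraries, 46.9, 36.2, 49.6 and 58.9 CPM in WT hypoxia, and 6.43, 8.65, 10.3 and 8.95 CPM in KO cells. All 4 hypoxia libraries were above every WT normoxia and KO library, with a gap from 10.3 to 36.2 CPM. The hypoxia mean was 6.83 times the WT normoxia mean, 47.9 ± 9.34 against 7.01 ± 1.19 CPM (SD, n = 4), and the fitted log2 fold change was 2.77 ± 0.15 (SE). A gene was called at an adjusted p under 0.05 where its log2 fold change was also 0.5 or more in size by edgeR's quasi-likelihood test. Of the 6 members, 1 was called higher in hypoxia, PPFIA4, and 0 lower. Of all 21776 genes tested, 7.26% were called, 5.83% higher and 1.43% lower. Since the same comparison chose the family, nothing is read from this count. Bulk libraries cannot tell more RNA per cell from more cells with the transcript. By log2 fold change PPFIA4 ranked 5 of 14800 genes with a mean of at least 100 counts, just below BLOC1S5-TXNDC5 at 3.16 and just above NDRG1 at 2.60. Among all 21776 genes tested it ranked 30. The estimated counts behind PPFIA4 ranged from 603 to 11633 over the libraries, and no other annotated gene overlaps it.

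**Figure D1:**
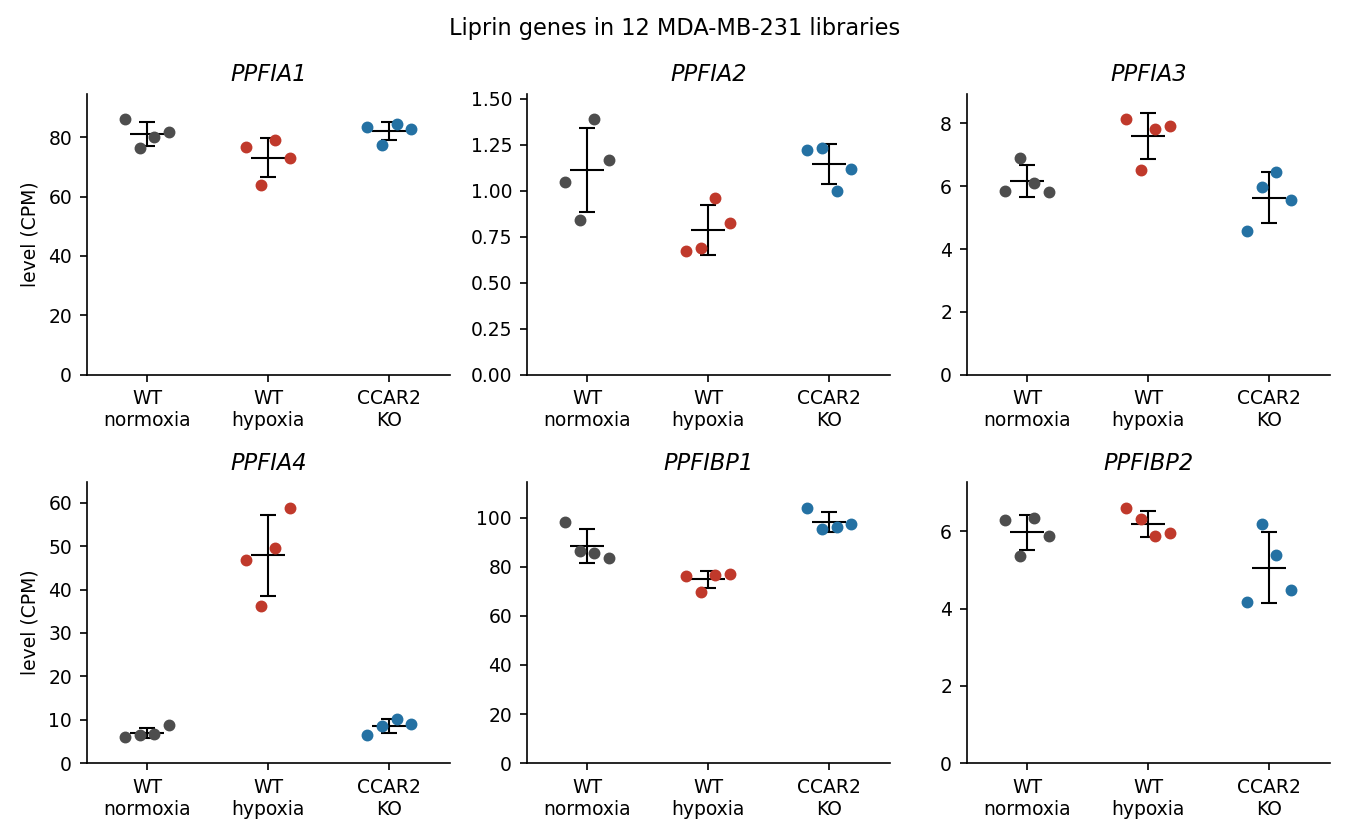
Level of each liprin gene (CPM, vertical axis from 0) in every library of WT normoxia, WT hypoxia and CCAR2 KO; points are libraries, long bars are group means and whiskers are 1 SD. PPFIA4 sits at 36.2 CPM or above in the 4 hypoxia libraries and at 10.3 CPM or below in the 8 others.

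The other α-liprins did not share the PPFIA4 pattern in size. PPFIA1, the liprin of cell edges and focal adhesions, was at 86.1, 76.3, 80.0 and 81.7 CPM in WT normoxia and at 76.5, 63.8, 78.9 and 73.0 CPM in WT hypoxia. Replicates 2 and 4 of the hypoxia group were below all WT normoxia libraries and the other 2 overlapped them, with a log2 fold change of -0.16 ± 0.07 (SE). PPFIA3, an α-liprin best known from brain, was at 5.85, 6.90, 6.09 and 5.81 CPM in WT normoxia and at 8.14, 6.51, 7.82 and 7.91 CPM in hypoxia. Replicates 1, 3 and 4 were above all WT normoxia libraries and replicate 2 lay among them, with a log2 fold change of 0.29 ± 0.10. PPFIA2, the other α-liprin of brain, was the lowest member, at 1.04, 0.842, 1.39 and 1.16 CPM in WT normoxia and at 0.673, 0.686, 0.961 and 0.825 CPM in hypoxia. Its groups overlapped in 1 hypoxia library, and the log2 fold change was -0.50 ± 0.20, from 52 to 290 counts a library. ACSS3, an acetyl-CoA synthetase gene on the opposite strand, overlaps 3231 bases of PPFIA2 and was at 26.5 CPM in WT normoxia, 23.1 CPM in hypoxia and 36.4 CPM in KO cells. Whether the counting used strand is not given in the sources used here, so reads of the pair cannot be told apart in the shared bases.

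The β-liprins differed less than PPFIA4. PPFIBP1 encodes liprin-β1, and its 4 hypoxia libraries, at 76.2, 69.7, 76.5 and 77.1 CPM, all lay below the WT normoxia libraries at 98.3, 86.3, 85.6 and 83.4 CPM. The log2 fold change was -0.25 ± 0.06. PPFIBP2, which encodes liprin-β2, was at 6.30, 5.36, 6.34 and 5.87 CPM in WT normoxia and at 6.61, 6.32, 5.87 and 5.95 CPM in hypoxia, with a log2 fold change of 0.04 ± 0.09. Its groups overlapped in all but 1 hypoxia library.

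The median hypoxia log2 fold change was -0.06 over the 6 members and 0.01 over all genes. WT hypoxia replicate 2 had the lowest level of its group for PPFIA1, PPFIA3, PPFIA4 and PPFIBP1. Without it the log2 fold changes were 2.87 for PPFIA4, -0.10 for PPFIA1, -0.44 for PPFIA2, 0.36 for PPFIA3, -0.22 for PPFIBP1 and 0.03 for PPFIBP2.

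**Figure D2:**
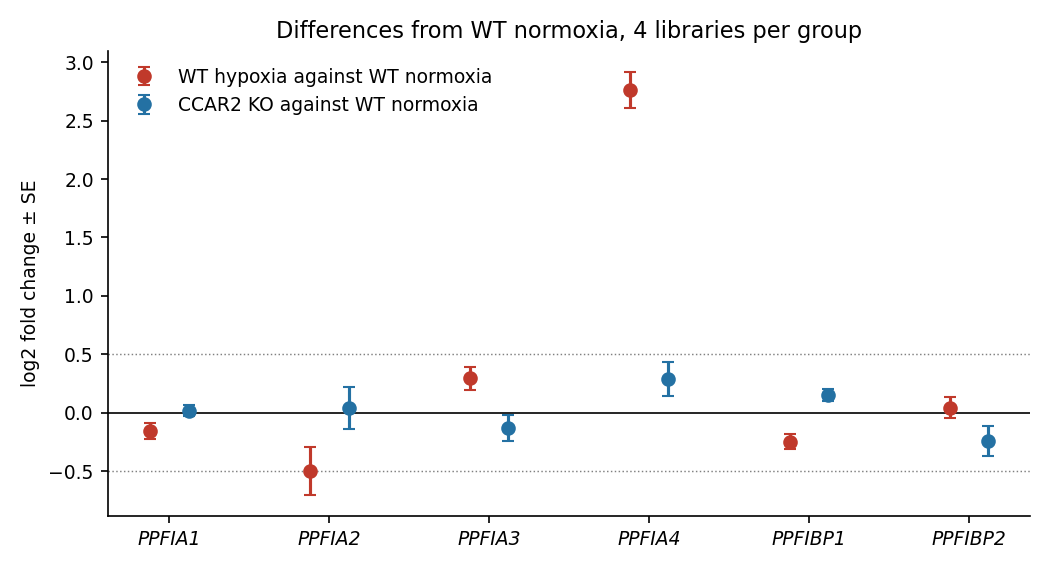
Log2 fold change of each liprin gene in WT hypoxia and in CCAR2 KO cells, each against the same 4 WT normoxia libraries; points are fitted values and bars are their standard errors. PPFIA4 in hypoxia, at 2.77, stands apart from the other 11 values, which lie between -0.50 and 0.29.

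CCAR2 KO cells in normoxia were compared with WT normoxia, so that neither group was in low oxygen. No control guide is named for the WT cells in the sources used here. Loss of CCAR2 therefore cannot be told apart from effects of the guide vector or of cell selection. This comparison was not used to choose the members, but it shares its WT libraries with the one that was. By edgeR 0 of the 6 members was called, beside 9.67% of 21410 genes tested, 6.73% higher and 2.94% lower. With both limits DESeq2 also called 0, with PPFIBP1 at an adjusted p of 0.0258 by DESeq2 but a log2 fold change of 0.15. At an unadjusted p under 0.05 edgeR gave 1 member, PPFIBP1. The share of all genes at that looser limit is not given here. The median log2 fold change was 0.03 over the members and 0.009 over all genes.

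For PPFIA4 the KO libraries, as listed above, overlapped WT normoxia, with 2 of 4 above all WT libraries. The log2 fold change was 0.29 with a 95% interval of -0.03 to 0.61 (edgeR adjusted p = 0.165, two-sided exact permutation p = 0.229), against 2.77 in hypoxia. The smallest p that 4 libraries against 4 can give in the permutation test is 0.0286. Without WT normoxia replicate 4 the value was 0.41 (edgeR adjusted p = 0.0439), and without KO replicate 1 it was 0.40 (edgeR adjusted p = 0.0372), both under the fold limit. PPFIBP1 was at 104.1, 95.3, 96.1 and 97.4 CPM in KO cells, with 1 library above all WT normoxia libraries. Its log2 fold change of 0.15, with an interval of 0.04 to 0.27, passed the adjusted p (edgeR, 0.0464) but not the fold limit, and the exact permutation p was 0.114. Across 16 alternative fits by edgeR, DESeq2 and voom its adjusted p was between 0.00234 and 0.152, and it was under 0.05 in 7 of them.

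PPFIBP2 was at 4.17, 6.20, 5.38 and 4.47 CPM in KO cells, where 2 libraries were below all of WT normoxia, and its log2 fold change was -0.24 with an interval of -0.52 to 0.03 (edgeR adjusted p = 0.174). PPFIA1 was at 83.3, 77.5, 84.3 and 82.8 CPM in KO cells, within the WT normoxia range, with an interval of -0.08 to 0.11 on the log2 scale (edgeR adjusted p = 0.823). PPFIA3 was at 4.57, 5.97, 6.46 and 5.56 CPM, with an interval of -0.37 to 0.12 (edgeR adjusted p = 0.443). PPFIA2 was at 1.22, 1.23, 1.00 and 1.12 CPM, with the widest interval among the α-liprins, -0.35 to 0.43 (edgeR adjusted p = 0.900). The overlapping gene ACSS3 was higher in KO cells, at a log2 fold change of 0.45 ± 0.06 (edgeR adjusted p = 6.54e-05), and its part in the PPFIA2 value was not tested.

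Levels of different members were compared per kb of annotated exon, as CPM divided by the summed length of all exons. In WT normoxia the order was PPFIBP1 at 7.56 ± 0.576, PPFIA1 at 6.92 ± 0.347, PPFIA3 at 0.955 ± 0.0786, PPFIA4 at 0.722 ± 0.122, PPFIBP2 at 0.609 ± 0.0467 and PPFIA2 at 0.129 ± 0.0267 CPM per kb (SD, n = 4). The libraries of PPFIBP1 and PPFIA1 overlapped, as did those of PPFIA3 with PPFIA4 and of PPFIA4 with PPFIBP2. PPFIA1 was 7.25 times PPFIA3, with no overlap. Divided by the longest transcript instead, PPFIBP2 was at 1.68 CPM per kb, above PPFIA3 at 1.3 and PPFIA4 at 1.09. In hypoxia PPFIA4 moved up to place 3, at 4.93 ± 0.962 CPM per kb, below PPFIBP1 at 6.41 ± 0.299 and PPFIA1 at 6.24 ± 0.567. Its libraries overlapped those of PPFIA1 on this length but not per kb of the longest transcript, at 5.63 to 9.15 against 9.51 to 11.8 CPM per kb. It was 4.19 times PPFIA3, at 1.18 ± 0.114, with no overlap. In KO cells PPFIA4, at 0.883 ± 0.163, and PPFIA3, at 0.874 ± 0.124, overlapped, and no other neighbours in the order did. Per kb of the longest transcript, PPFIBP2 in KO cells was at 1.42, PPFIA4 at 1.33 and PPFIA3 at 1.19 CPM per kb, with overlapping libraries.

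Among the α-liprins PPFIA4 supplied 7.0%, 8.03%, 7.92% and 10.1% of the summed CPM per kb in the WT normoxia libraries. In hypoxia its share was 38.0%, 36.3%, 38.8% and 44.5%, and in KO cells it was 7.67%, 10.4%, 11.3% and 10.3%. PPFIA1 supplied 79.3% ± 1.64 in WT normoxia, 50.4% ± 3.17 in hypoxia and 78.8% ± 2.59 in KO cells (SD, n = 4). The ratio of PPFIA1 to PPFIA4 per kb was 9.78 ± 1.61, 1.29 ± 0.185 and 8.17 ± 1.76 in the same order. The summed α-liprin level was 8.73 ± 0.298 CPM per kb in WT normoxia, 12.4 ± 1.5 in hypoxia and 8.90 ± 0.370 in KO cells. With the longest transcript as the length, the PPFIA4 share was 7.42%, 36.8% and 8.88%. For the β-liprins, PPFIBP1 was 12.5 ± 1.01 times PPFIBP2 per kb in WT normoxia, 10.2 ± 0.845 times in hypoxia and 16.8 ± 3.53 times in KO cells.

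**Figure D3:**
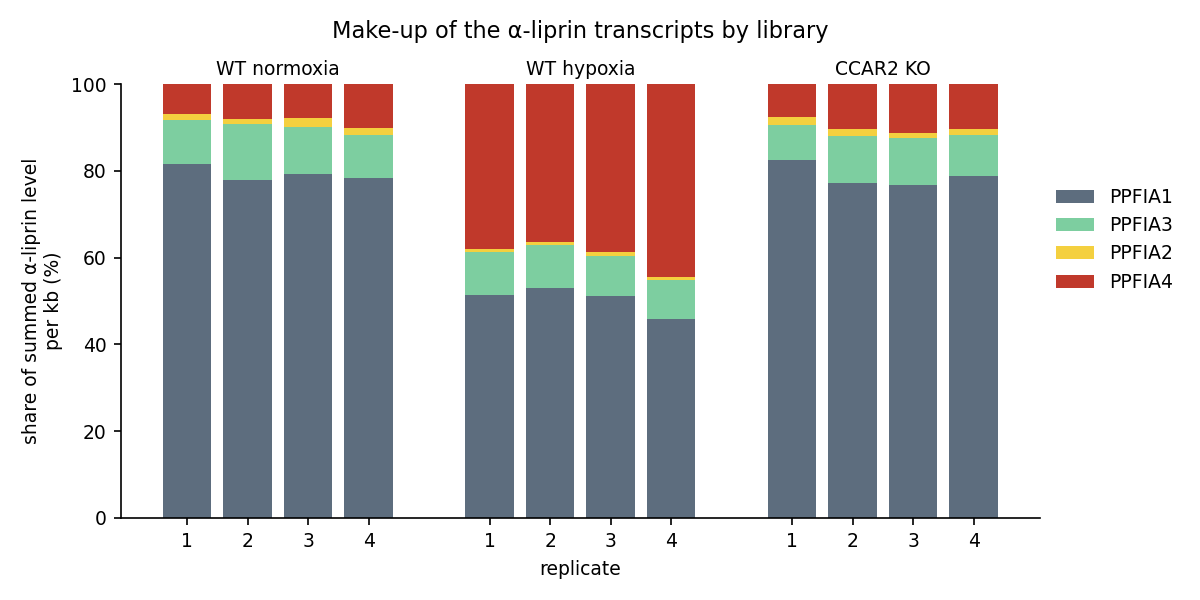
Share of each α-liprin gene in the summed α-liprin CPM per kb of exon (percent, vertical axis from 0 to 100) in each of the 12 libraries. The PPFIA4 share lies between 36.3% and 44.5% in the 4 hypoxia libraries and between 7.0% and 11.3% in the 8 others.

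Among the 5 genes of 14697 compared whose log2 CPM followed PPFIA4 most closely over the 12 libraries were PFKL, PFKFB4, ANKZF1 and PFKP, with Pearson's r between 0.990 and 0.992. The 12 points share their 3 groups, so r mostly reflects the step between hypoxia and the rest. PFKL and PFKP encode phosphofructokinase subunits of glycolysis, and PFKFB4 sets the level of the phosphofructokinase activator fructose 2,6-bisphosphate. PFKFB4 was at 20.3, 74.4 and 23.8 CPM in WT normoxia, hypoxia and KO cells, and PFKP was at 516, 708 and 514 CPM. ANKZF1, a ribosome quality control factor, was at 31.1, 75.0 and 34.4 CPM. These 4 genes were highest in hypoxia, as PPFIA4 was, with smaller log2 fold changes of 0.45 to 1.86.

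Of 45 genes listed for known liprin binding partners and complexes, 41 were tested. In hypoxia 4 were called higher and 0 lower by edgeR, 9.76% of those tested beside 7.26% of all genes. At an unadjusted p under 0.05 by edgeR there were 11 higher and 5 lower. The share of all genes at that looser limit is not given here, so nothing is read from unadjusted counts, also those by list. The median log2 fold change of the 41 tested partners was 0.04. The 3 largest were KANK3, a cortical adaptor that went from 0.435 to 2.02 CPM (log2 fold change 2.2 ± 0.28, edgeR adjusted p = 4.13e-04), the LAR-type receptor phosphatase PTPRS, from 27.1 to 49.7 CPM (0.87 ± 0.12, edgeR adjusted p = 5.47e-04), and the CASK-binding scaffold CASKIN1, from 0.594 to 1.08 CPM (0.86 ± 0.24, edgeR adjusted p = 0.0223). Without WT hypoxia replicate 2 they were 2.2, 0.98 and 0.97. In that fit 5 partners were called higher, and the number of all genes called higher also rose, from 1270 to 1445. The CASKIN1 call was lost in 5 of 16 alternative fits, among them those without WT normoxia replicate 1 or 3 or without WT hypoxia replicate 3 or 4. RIMS1, an active zone gene named after its values were seen, rose from 1.43 to 2.44 CPM (0.76 ± 0.12, edgeR adjusted p = 0.00122). PTPRF, which encodes LAR itself, was at 272 ± 31.2 CPM in WT normoxia and 378 ± 65.6 CPM in hypoxia, under the fold limit at 0.46. By list, the calls in hypoxia were 1 of 2 receptor phosphatases, 2 of 15 active zone and CASK genes, 1 of 10 genes of the cortical microtubule complex, and 0 of 7 in each of the GIT-PIX list and the list of motors and others. At an unadjusted p under 0.05, edgeR gave 1 gene higher and 1 lower in the GIT-PIX list and 2 higher and 1 lower in the other.

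In KO cells 5 partners were called higher and 1 lower by edgeR, 14.6% of 41 beside 9.67% of all genes, with a median log2 fold change of 0.04. At an unadjusted p under 0.05 by edgeR there were 12 higher and 6 lower. Nothing is read from these unadjusted counts either, since the share of all genes at that limit is not given here. The calls fell in the receptor phosphatases (1 of 2), the active zone and CASK genes (2 higher and 1 lower of 15), the cortical microtubule complex (1 of 10) and the motors and others (1 of 7), with 0 of 7 in the GIT-PIX list, where 1 was higher and 1 lower at an unadjusted p under 0.05 by edgeR. S100A4, a calcium-binding protein that interacts with liprin-β1, rose from 16.5 ± 2.46 to 63.4 ± 4.58 CPM (log2 fold change 1.94 ± 0.10, edgeR adjusted p = 4.55e-08). UNC13A, a vesicle priming factor, rose from 0.120 to 0.520 CPM (2.12 ± 0.44, edgeR adjusted p = 0.00295), and PCLO, an active zone scaffold, from 2.77 to 4.93 CPM (0.83 ± 0.21, edgeR adjusted p = 0.00833). UNC13A rested on 6 to 35 counts a library in WT normoxia and 31 to 93 in KO cells. It was not fitted under the filter of at least 10 counts in every library, which left 15 alternatives. RIMS2, an active zone protein that binds liprin-α, fell from 40.5 ± 3.77 to 18 ± 1.81 CPM (-1.17 ± 0.08, edgeR adjusted p = 6.63e-07). The other 2 calls, named after their values were seen, were KANK1, from 18.4 to 28.3 CPM, and PTPRS, from 27.1 to 39.8 CPM. The PTPRS call was lost without WT normoxia replicate 2, at a log2 fold change of 0.49. PTPRF, the other receptor phosphatase tested, went the other way, from 272 to 218 CPM with no overlap of libraries. Its log2 fold change of -0.32 ± 0.07 (edgeR adjusted p = 0.00425) was under the fold limit. SYT1, a neuronal marker, was called higher in KO cells (3.77 to 8.07 CPM), and its part in the active zone values was not tested. The other neuronal markers listed were not called in KO cells. Their log2 fold changes were 0.33 for SYP, 0.09 for SNAP25 and -0.81 for RBFOX3, and STMN2 was too low to be tested.

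**Figure D4:**
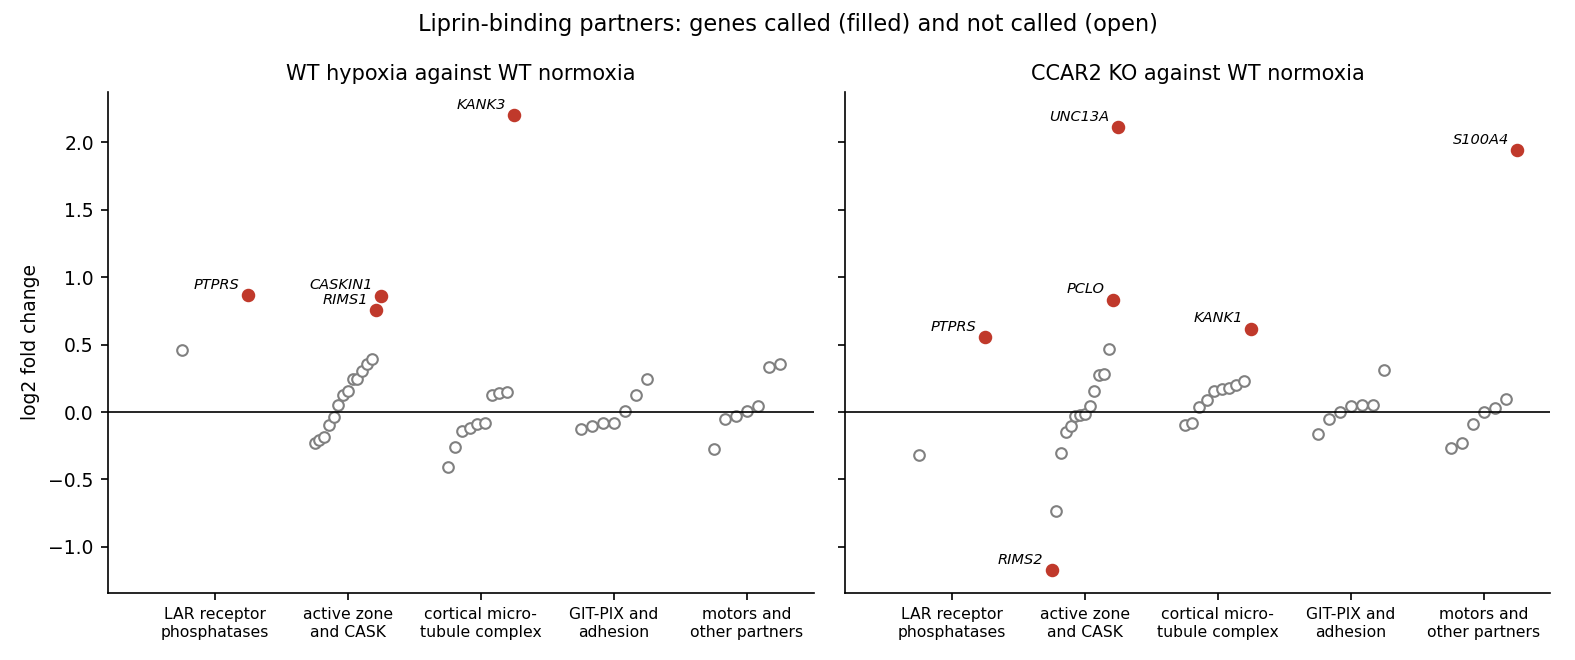
Log2 fold change of the 41 tested partner genes in WT hypoxia and in CCAR2 KO cells against WT normoxia, grouped by list; filled points passed both limits and open points did not. KANK3 at 2.2 is the highest point in hypoxia, and in KO cells UNC13A at 2.12 is the highest and RIMS2 at -1.17 the lowest.

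Around PPFIA4, 28 annotated genes lie within 250 kb of the gene, all listed in the table, and 14 were tested in each comparison. In hypoxia 1 of the 14 was called higher and 0 lower by edgeR, beside 7.26% of all genes called in either direction. PCAT6, a long noncoding RNA gene that starts at -216 kb, rose from 0.253 to 0.640 CPM (log2 fold change 1.33 ± 0.28, edgeR adjusted p = 0.00580). The nearest tested genes on either side were TMEM183A, which starts at -19.1 kb from PPFIA4, and the adenosine receptor gene ADORA1, at 64.2 kb. TMEM183A had a log2 fold change of -0.20 ± 0.05 (edgeR adjusted p = 0.0212) and ADORA1 of -0.25 ± 0.07 (edgeR adjusted p = 0.0249). RABIF, at -137 kb, had -0.21 ± 0.07 (edgeR adjusted p = 0.0381). All of these were under the fold limit. KLHL12, an adaptor gene of a ubiquitin ligase, was in the other direction, at 25.2 CPM in WT normoxia and 33.5 CPM in hypoxia (0.40 ± 0.06, edgeR adjusted p = 9.09e-04), under the fold limit. In KO cells 1 of the 14 was called higher and 1 lower by edgeR, beside 9.67% of all genes called in either direction. MYBPH, a myosin-binding protein gene, was higher, from 5.81 to 12.2 CPM, and AC098934.1 was lower. The calls of these neighbours were not refitted under the alternatives.

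**Figure D5:**
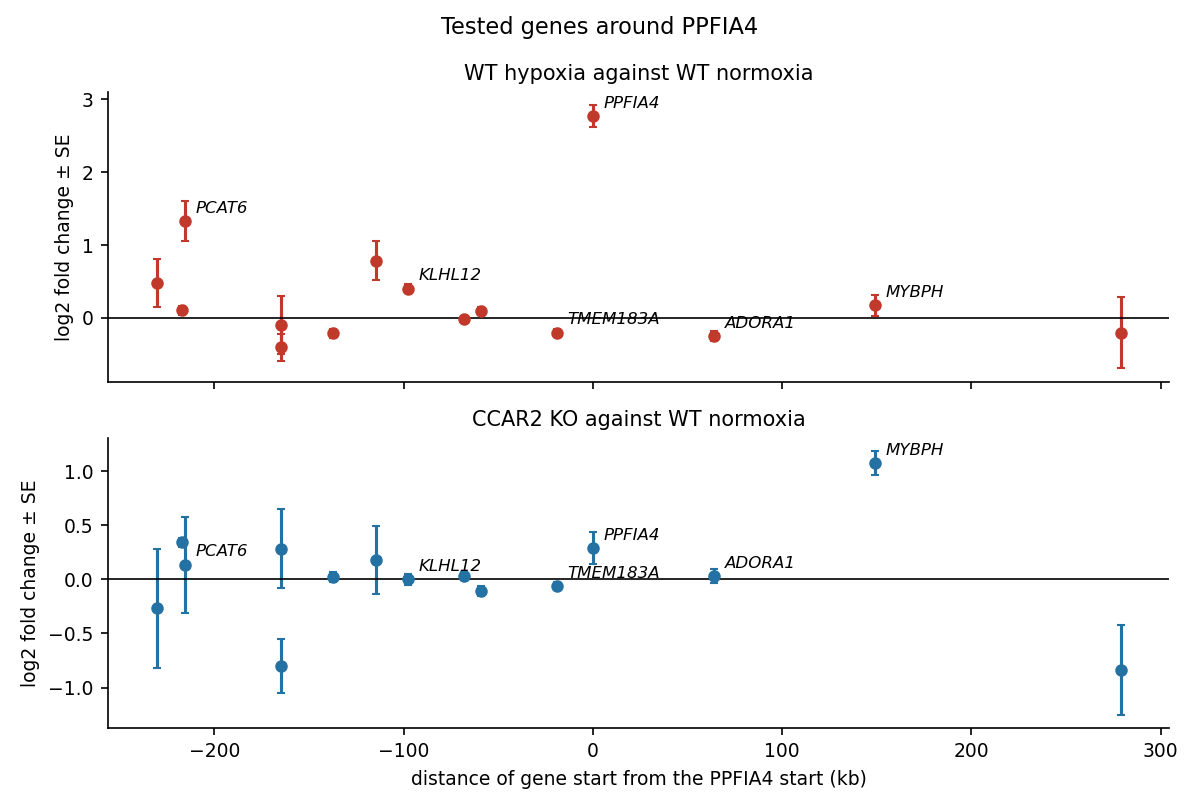
Log2 fold change with its standard error (vertical axis) of PPFIA4 and of the tested genes within 250 kb of it, against the distance of their start from that of PPFIA4 (kb, horizontal axis), in hypoxia (upper panel) and in KO cells (lower panel). In the upper panel PPFIA4 at 2.77 is the highest point and PCAT6 at 1.33 is next.

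PPFIA1 lies in 11q13, a region amplified in part of breast cancers together with the cyclin gene CCND1. In these cells CCND1 was at 962, 903 and 990 CPM in WT normoxia, hypoxia and KO cells, and the cortactin gene CTTN was at 218, 235 and 224 CPM. FADD, a death receptor adaptor gene, was at 75.9, 92.9 and 73.9 CPM, and LTO1 was at 42.4, 39.2 and 41.0 CPM. Of the 9 genes listed from this region, 5 were tested in hypoxia and 1 was called higher, beside 5.83% of all genes: the scaffold gene SHANK2, from 0.668 to 1.35 CPM with overlapping libraries (log2 fold change 1.01 ± 0.28, edgeR adjusted p = 0.0248). In KO cells 6 were tested and 2 were called higher by edgeR, beside 6.73% of all genes. The chloride channel gene ANO1 went from 0.0962 to 0.336 CPM, on 4 to 58 counts a library and with overlapping groups, at a log2 fold change of 1.77 ± 0.54, and SHANK2 from 0.668 to 1.15 CPM, at 0.79 ± 0.24. These calls were not refitted under the alternatives.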

How the data were processed

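RNA-seq of 12 MDA-MB-231 libraries gave 1 table of estimated counts per gene, which the authors deposited as whole numbers, not scaled to library size. According to the methods, reads were aligned with Hisat2 and quantified with StringTie, whereas the submitters' processing notes name HISAT2, SAMtools and featureCounts with no version. Genome build, annotation and strand setting of the counting are not given in the sources used here. Positions and exon lengths came from GENCODE 29 (GRCh38) by identifier, and promoter windows from RefSeq (GRCh38.p14, the 50 bases after the start left out).

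Groups were taken from the labels. WT hypoxia and CCAR2 KO were each compared with WT normoxia, 4 libraries against 4, with edgeR 4.0.16 in R 4.3.3 (TMM, filterByExpr, glmQLFit, glmQLFTest) and Benjamini-Hochberg adjustment over all genes tested. Genes were called at an adjusted p under 0.05 if the log2 fold change was also 0.5 or more in size. A standard error is the fold change divided by the root of the F statistic, and intervals use the edgeR degrees of freedom. Members were also compared in KO cells on the log2 CPM scale with an exact permutation test, two-sided. DESeq2 1.42.0, voom of limma 3.58.1, other filters and scalings, counts divided by 4 (because a value of 4 was more frequent than 3 or 5) and leaving out each library were alternatives. On simulated data with 200 genes changed by a factor of 2, edgeR called 66.5% of them with 6 false calls for hypoxia (21776 genes) and 64.5% with 9 false calls for KO cells (21410 genes).

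The members and lists were chosen with earlier results of these data known. Named were all members, up to 3 partners called in each direction by size, the 5 genes most like PPFIA4 over at least 100 mean counts (1 of them is not reported here), genes within 250 kb of PPFIA4, 11q13 neighbours of PPFIA1, and CCAR2 and CA9. Same-numbered libraries did not deviate together over all genes (correlations -0.0249 to 0.0651), and the main fits did not pair them. These correlations do not exclude a pairing, which the labels do not give. With a replicate block the standard error of PPFIA4 in hypoxia was 0.0839 in place of 0.153. In hypoxia the standard error was also smaller with the block for PPFIA1 (0.0508 in place of 0.0691), PPFIA2 and PPFIBP1. It was larger for PPFIA3 (0.113 in place of 0.0998) and PPFIBP2. In KO cells it was smaller for PPFIA1, PPFIA3, PPFIA4 and PPFIBP1 and larger for PPFIA2 and PPFIBP2. Depth limits the low members most: PPFIA2 had 52 to 290 counts a library.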

Additional observations from a re-analysis of the deposited data

Results flagged for a closer look

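PPFIBP1 in WT hypoxia replicate 2 was the lowest of its group at 69.7 CPM, with the nearest of the others at 76.2 CPM, so that the gap was 0.883 of the range of the group. Of 18 groups of 4 libraries tested over the 6 members, 1 was set apart in this way, and chance gives about 0.9. Without this library the hypoxia log2 fold change of PPFIBP1 was -0.22 in place of -0.25.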

How the results depend on the processing

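Under 16 alternatives for each comparison, no member gained or lost a call, which needs both limits. On the log2 scale PPFIA4 was between 2.65 and 2.90 in hypoxia and between 0.19 and 0.41 in KO cells. The family was chosen by the hypoxia value of PPFIA4, so nothing is read from the stability of that call. With the adjusted p alone, 2518 genes were called higher and 2609 lower in hypoxia, and 3199 and 3307 in KO cells, against 1270 and 312, and 1441 and 629. Partners called on the adjusted p alone were 9 higher and 3 lower in hypoxia, and 11 and 6 in KO cells. Fits with the replicate block called 1183 genes higher and 324 lower in hypoxia and 1393 and 603 in KO cells, and gave PPFIA4 a log2 fold change of 2.76 in hypoxia and 0.28 in KO cells; the block changed no member's or partner count's call. Leaving out 1 library gave 1046 to 1445 genes higher and 236 to 398 lower in hypoxia, and 1291 to 1461 and 557 to 672 in KO cells. Per kb of the longest transcript, WT normoxia levels were 12.1 for PPFIA1, 0.201 for PPFIA2, 1.3 for PPFIA3, 1.09 for PPFIA4, 14.7 for PPFIBP1 and 1.68 for PPFIBP2 CPM per kb, which puts PPFIBP2 above PPFIA3 and PPFIA4. Single limits were crossed: PPFIA2 in hypoxia was between -0.61 and -0.37 on the log2 scale, PPFIBP1 in KO cells passed the adjusted p in 7 of 16 fits, and PPFIA4 in KO cells did in 2. The adjusted p of PPFIBP2 in KO cells was between 0.0389 and 0.374 by edgeR or the other tools, and under 0.05 in 1 fit, without KO replicate 2. Depth leaves the fold changes of PPFIA2 and of partners near 1 CPM or below least certain.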
